A study of Xenopus laevis with 16 samples.

Results

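The Mix homeobox family was followed through 4 transcripts: mix1.L, mix1.S and the numbered gene models Xelaev18028631m and Xelaev18026293m. They were chosen by name from the 43641 transcripts of the full table, and their values were read from every deposited table that lists them. In the files mix1.L and mix1.S, the homeologous copies of 1 gene in the allotetraploid Xenopus laevis genome, carry the human symbol OTX2, which the authors assigned by protein comparison. The numbered models carry MIXL1, and so do 5 further transcripts that are not members, mixer.L and mixer.S among them. A RefSeq gene table of a later assembly (Xenopus_laevis_v10.1) lists mixl1 as a synonym of both mix1 copies. In that table mix1.L on chromosome 5L adjoins mixer.L and the bix genes bix1.1.L and bix1.3.L, and mix1.S on chromosome 5S adjoins mixer.S, bix1.1.S, bix1.2.S and bix1.3.S. The bix names are not used in the deposited tables, and the numbered models have no symbol in the RefSeq table. Which Mix or bix gene each numbered model stands for was therefore not settled.

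Mix genes encode paired-type homeodomain transcription factors that bind DNA as dimers. In the frog they are activated in mesoderm and endoderm precursors by Nodal and activin signals, which reach the nucleus through Smad2 and FoxH1, and Mix.1 was first described as an immediate early response to mesoderm-inducing factors. Mixer acts in endoderm formation upstream of sox17 genes, and Mix.1 has been placed downstream of BMP4 in ventral mesoderm.

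RNA was sequenced from 16 libraries of Nasco-strain X. laevis embryos, all collected at stage 12, when gastrulation is under way. Of these, 14 were animal caps, the ectoderm at the top of the blastula that forms epidermis when left alone, cut at stage 9. Controls 1 to 4 were intact caps, dissociated 1 to 3 were caps taken apart into single cells, and each injected condition was 1 library of caps from embryos given mRNA at the 2- to 4-cell stage. The injections were 200 pg BMP4, 400 pg Chordin (a BMP antagonist), 16 pg Wnt8, 400 pg Cerberus (an antagonist of Nodal, BMP and Wnt), 200 pg FGF8, 200 pg Xnr2 (a Nodal ligand), and 16 pg Wnt8 with 200 pg Xnr2. The remaining libraries were a dorsal and a ventral part of embryos cut in 2 at stage 10, which hold tissue of all germ layers. Control 1 is the labelled control of BMP4, Chordin and dissociated 1, control 2 of dissociated 2, control 3 of Wnt8, Cerberus and dissociated 3, and control 4 of FGF8, Xnr2 and Wnt8 plus Xnr2. All injections were compared with the same 4 controls, so their results are not independent of each other. Nothing in the labels says that replicates came from separate clutches, and p-values then measure only the spread between these libraries, which may be technical.

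Levels are given in RPKM, which divides reads by transcript length and by the library's mapped reads. Depth, as recovered from the values, ran from 25408438 mapped reads in the ventral part to 46522450 in control 3. Defining cap genes were present: a list of epidermal markers summed to 975 RPKM in control 1 and to 2111 to 2733 in controls 2 to 4. Control 1 also stood apart in a list of neural plate markers, at 518 RPKM against 93.7 to 152 in the other controls. Markers of marginal zone mesoderm summed to 2.71 to 8.29 RPKM in controls, to 5.62 to 14.8 in dissociated caps, and to 1143 and 1369 in the dorsal and ventral parts. Vegetal or germ plasm markers, which a cap cut too large could bring, summed to 21.2 to 35.0 RPKM in controls and to 345 and 398 in the parts. In bulk RNA, fewer cells of a type and less RNA per cell cannot be told apart.

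The 4 transcripts were near 0 in 10 cap libraries and clearly expressed in 5 others. In controls 1 to 4, dissociated 1 to 3, Chordin, Wnt8 and Cerberus, 12 of the 40 values were at 0 reads, 25 rested on at most 3 reads, and the highest was 0.647 RPKM, from 38 reads. In BMP4, Xnr2, Wnt8 plus Xnr2 and the dorsal and ventral parts, the values ran from 4.41 to 62.0 RPKM and from 186 to 3845 reads. No value of the first set of libraries reached any value of the second. Summed over the 4 transcripts, the level was 147 RPKM after BMP4, 107 in the ventral part, 86.6 after Wnt8 plus Xnr2, 74.3 after Xnr2 and 41.1 in the dorsal part, against 0.0214 to 0.664 in the 10 cap libraries.

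**Figure D1:**
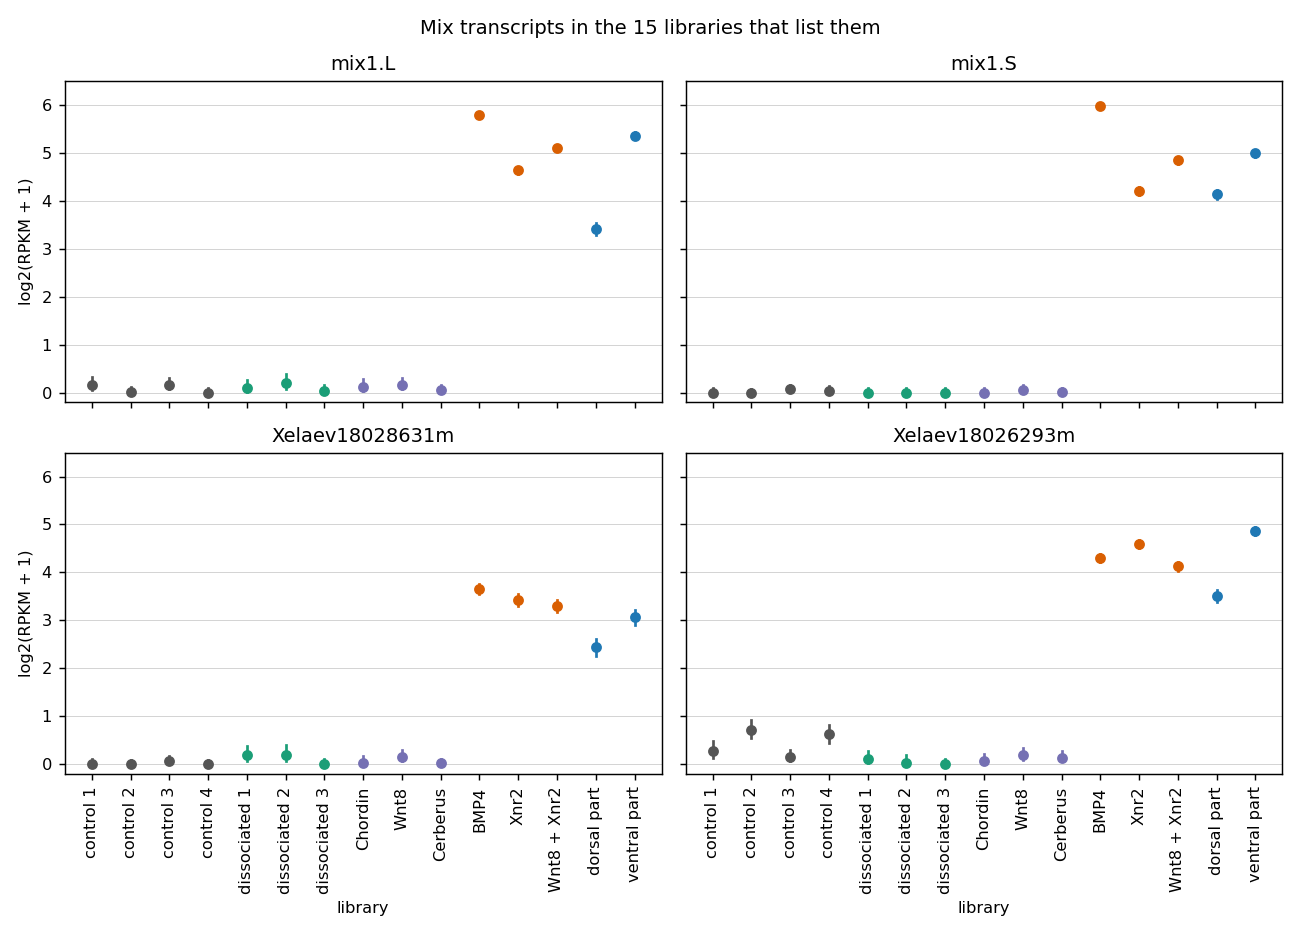
Level of each Mix transcript as log2(RPKM + 1) in the 15 libraries that list it, 1 point per library with the 95% Poisson interval of its reads (grey, controls; green, dissociated; purple, Chordin, Wnt8 and Cerberus; orange, BMP4, Xnr2 and Wnt8 plus Xnr2; blue, embryo parts). The 10 libraries on the left stay at or below 0.647 RPKM and the 5 on the right lie at 4.41 RPKM or above.

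The mix1.L copy read 0.110, 0.0164, 0.122 and 0 RPKM in controls 1 to 4, a mean of 0.0621 ± 0.0628 (SD, n = 4). In dissociated 1 to 3 it read 0.0683, 0.143 and 0.0214 RPKM, a mean of 0.0774 ± 0.0611 (SD, n = 3). It read 0.0871 RPKM after Chordin, 0.121 after Wnt8 and 0.0413 after Cerberus, within the range of the untreated and dissociated caps. The level was 54.5 RPKM after BMP4 (95% Poisson interval 52.6 to 56.5), 40.2 in the ventral part (38.2 to 42.2), 33.5 after Wnt8 plus Xnr2 (32.0 to 35.1), 23.8 after Xnr2 (22.5 to 25.3) and 9.73 in the dorsal part (8.82 to 10.7). These intervals, which cover counting error only, do not overlap, so all 5 levels of mix1.L were in a resolved order as far as counting goes.

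The mix1.S copy was at 0 reads in controls 1 and 2, in all 3 dissociated libraries and after Chordin. Controls 3 and 4 read 0.0472 and 0.0299 RPKM, and the Wnt8 and Cerberus libraries 0.0394 and 0.0120, each from 1 to 4 reads. The control mean was 0.0193 ± 0.0234 RPKM (SD, n = 4). After BMP4 the level was 62.0 RPKM, the highest of any member in any library. The ventral part followed at 30.8 RPKM and Wnt8 plus Xnr2 at 27.8, and then Xnr2 at 17.5 and the dorsal part at 16.6. The last pair did not differ beyond counting error (ratio of Xnr2 to dorsal 1.06, 95% interval 0.964 to 1.16).

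The model Xelaev18028631m was the lowest of the 4 in every library where the family was expressed. It had no read in controls 1, 2 and 4 and 3 reads in control 3 (0.0422 RPKM). Dissociated 1 and 2 read 0.141 and 0.148 RPKM from 6 reads each, dissociated 3 was at 0 reads, and Chordin, Wnt8 and Cerberus read 0.0226, 0.110 and 0.0143. Its levels were 11.6 RPKM after BMP4, 9.75 after Xnr2, 8.85 after Wnt8 plus Xnr2, 7.36 in the ventral part and 4.41 in the dorsal part. This was the narrowest range of the family in RPKM. In that order the interval of Wnt8 plus Xnr2 (8.06 to 9.70) overlapped those of its neighbours, Xnr2 (8.87 to 10.7) and the ventral part (6.53 to 8.27).

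The model Xelaev18026293m had more reads in untreated caps than the other members. It read 0.206, 0.647, 0.113 and 0.537 RPKM in controls 1 to 4, a mean of 0.376 ± 0.257 (SD, n = 4), from 8 to 38 reads a library. In dissociated 1 to 3 it read 0.0709, 0.0247 and 0 RPKM, and after Chordin, Wnt8 and Cerberus 0.0453, 0.141 and 0.100. Unlike both mix1 copies, it was highest in the ventral part, at 28.3 RPKM (1095 reads). Xnr2 followed at 23.2 RPKM, BMP4 at 18.7, Wnt8 plus Xnr2 at 16.5 and the dorsal part at 10.4, and the intervals of BMP4 (17.5 to 19.9) and Wnt8 plus Xnr2 (15.4 to 17.6) overlapped at their ends.

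After BMP4 injection all 4 transcripts rose against the controls. BMP4 is the ligand that maintains epidermis and, in mesoderm, ventral fate. On log2(RPKM + 1), a scale that shrinks the change of transcripts near 0, mix1.S rose by 5.95 ± 0.228 (SE, limma adjusted p = 1.81e-05) and mix1.L by 5.71 ± 0.241 (adjusted p = 2.07e-05). The model Xelaev18026293m rose by 3.86 ± 0.290 (adjusted p = 0.000481) and Xelaev18028631m by 3.64 ± 0.220 (adjusted p = 0.000118). Of all 16048 transcripts tested, 0.417% were called higher, and the median change over all 16048 was 0.16 against 4.78 for the members. Each member passed the filter on low values (a mean of at least 1 RPKM in the treated library and control 1 together) only through the treated library, so a member that was tested had to differ, and the count of 4 is no support by itself.

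Against control 1 alone, the fold after BMP4 was 496 for mix1.L, from 5 control reads (95% interval 212 to 1530), and 90.9 for Xelaev18026293m, from 9 control reads (47.7 to 199). Over all 4 controls the folds were 866.5 (524.5 to 1550) and 50.4 (40.3 to 63.7). Control 1 had no read of mix1.S or Xelaev18028631m, and against a floor of 3 reads in that library these were at least 1081.5-fold and at least 169.9-fold higher. Without control 1, which stood apart in its epidermal and neural markers, all 4 members were still called, with rises of 3.64 to 5.94. The spread in the test came from control and dissociated libraries, where the transcripts are near 0, and the single BMP4 library was assumed to vary like them. With voom on the recovered reads and the control set as a term, an alternative chosen after the data were seen, 0 of 4 members were called (adjusted p = 0.066 to 0.191), as were 0 of 13951 transcripts in all, 443 of them at an unadjusted p under 0.05.

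After Xnr2 injection all 4 transcripts rose as well. The change was 4.55 ± 0.188 (SE, limma adjusted p = 2.3e-06) for mix1.L, 4.18 ± 0.164 (adjusted p = 2.18e-06) for mix1.S, 4.16 ± 0.262 (adjusted p = 2.07e-05) for Xelaev18026293m and 3.41 ± 0.171 (adjusted p = 5.31e-06) for Xelaev18028631m. Among 14769 transcripts tested, 3.69% were called higher. The median change over all 14769 was -0.14 against 4.17 for the members, which again were tested only because the treated library was high. Control 4 had no read of mix1.L or Xelaev18028631m, which against the floor of 3 reads in that library were at least 461.5-fold and at least 182.2-fold higher. Against all 4 controls, which together held 15 reads of mix1.L, its fold was 378.7 (228.7 to 679). The fold was 585.5 for mix1.S, from 2 control reads (162 to 4842), and 43.2 for Xelaev18026293m, from 30 (30.1 to 64.3). Over all 4 controls Xelaev18026293m was 62.5-fold higher (50.1 to 79.0), above its 50.4-fold after BMP4, where the own controls gave the opposite order.

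After Wnt8 and Xnr2 together, mix1.L rose by 5.02 ± 0.193 (SE, limma adjusted p = 1.54e-06) and mix1.S by 4.82 ± 0.172 (adjusted p = 1.39e-06). The model Xelaev18026293m rose by 3.69 ± 0.259 (adjusted p = 3.92e-05) and Xelaev18028631m by 3.29 ± 0.170 (adjusted p = 6.21e-06). Here 3.5% of 14988 transcripts were called higher, and the median over all of them was -0.07 against 4.25 for the members. With voom and the control set as a term, Xelaev18028631m lost its call after Xnr2 (adjusted p = 0.0701) and after Wnt8 plus Xnr2 (adjusted p = 0.0704), and the other 3 kept theirs. Beside these rises, the vegetal markers listed summed to 59.6 RPKM after BMP4 (8 of 16 listed) and 25.2 after Xnr2 (9 of 16). After Wnt8 plus Xnr2 they summed to 86.1 (11 of 16). The sums include sox17a.L and sox17a.S, which read 17.3 and 18.7 RPKM after BMP4 and 8.70 and 4.72 after Xnr2. In the double injection these copies read 18.2 and 44.8 RPKM. The part of the vegetal markers in the rises was not tested. Epidermal markers, with 9 to 14 of 14 listed in each library, summed to 975 RPKM in control 1 and 739 in its BMP4 library. Control 4 held 2226 RPKM of them, its Xnr2 library 279 and its Wnt8 plus Xnr2 library 222, and the part of this in the rises was not tested either.

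**Figure D2:**
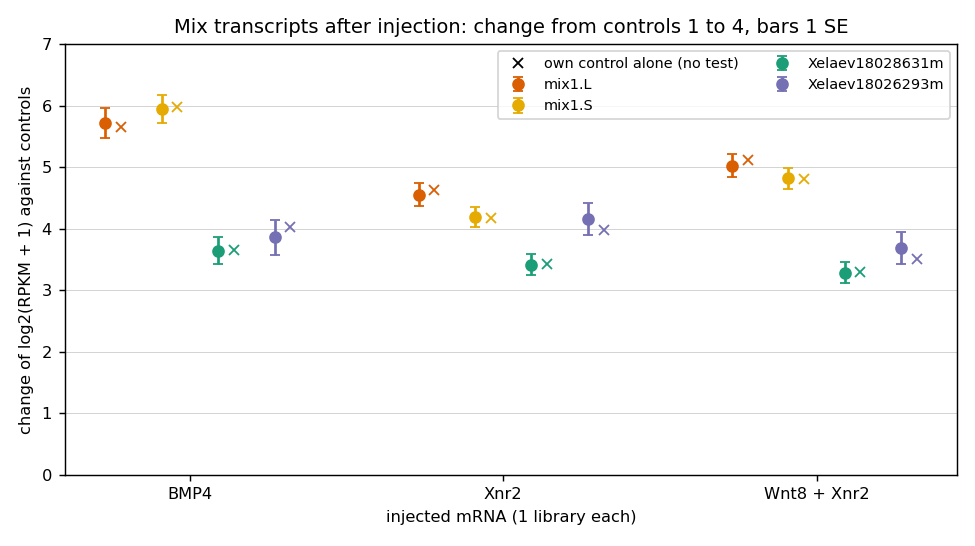
Change of log2(RPKM + 1) after 3 injections, as limma's estimate against controls 1 to 4 with its SE (circles with bars) and as the difference from the library's own labelled control (crosses, no test). The mix1 copies changed most after BMP4, by 5.71 and 5.95, and Xelaev18028631m changed by 3.29 to 3.64 in all 3.

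After Wnt8 mRNA alone, Chordin or Cerberus the family stayed near 0. Xelaev18026293m was below all 4 controls after Chordin (0.0453 RPKM, 2 reads) and Cerberus (0.100, 7 reads). The Cerberus interval (0.0403 to 0.206) overlapped that of its own control 3 (0.0487 to 0.222, 8 reads). How many of all transcripts lay below all 4 controls was not counted, so this says nothing particular of the member. The summed family read 0.155 RPKM after Chordin, 0.168 after Cerberus and 0.411 after Wnt8, against 0.316 to 0.664 in controls. None of the 4 transcripts averaged 1 RPKM with its control in these libraries, so none was tested with the filter. With the filter, 0.0758% of transcripts were called higher after Wnt8, 0.0128% after Chordin and 0.069% after Cerberus. Without the filter, limma called 0 of 4 members after Wnt8, 0 of 3 after Chordin and 0 of 4 after Cerberus. The Chordin fit left out mix1.S, which had no read in that library or in control 1, though controls 3 and 4 held a few. Over all transcripts these fits called 16 of 17260, 1 of 17244 and 5 of 17288, in either direction. For the members the unadjusted limma p ran from 0.167 to 0.974 and the log2 changes from -0.38 to 0.14. At so few reads this does not show that the level was unchanged.

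The FGF8 table lists none of the 4 transcripts. It leaves out transcripts that average under 1 RPKM with control 4, so after FGF8 the level was below 2 RPKM for mix1.L and Xelaev18028631m, below 1.97 for mix1.S and below 1.46 for Xelaev18026293m. Those bounds lie under every value of the family after BMP4, Xnr2 or Wnt8 plus Xnr2. They also lie above the members' control means of 0.0105 to 0.376 RPKM, so a rise that stayed below them could not be seen. FGF8 is a secreted ligand of the mesoderm, and in the same library 9 of 16 tested transcripts of a mesoderm list were called higher, where 0.168% of all transcripts were. Only these 16 of the list's 39 transcripts were tested, and those near 0 in controls are tested only where the FGF8 library is high. With the control set as a block 1 of the 16 was called, with a pseudocount of 0.1 RPKM 1, without control 2 only 5, without dissociated 1 or dissociated 3 only 6, and with names without reads kept 4. The 9 include the injected gene's own transcript fgf8.L (170 RPKM), the posterior homeobox gene cdx4.L (51.8 RPKM against 0.209 in control 4) and the Wnt ligand gene wnt8a.L (37.0 against 0.168).

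After dissociation into single cells, which separates cells from their neighbours' signals, values overlapped those of controls 1 to 3 for 3 of the 4 transcripts. Xelaev18026293m was lower in each of 3 pairs, from a mean of 0.322 ± 0.286 RPKM (SD, n = 3) in controls 1 to 3 to 0.0319 ± 0.0360 (n = 3), or from 55 reads in all to 4. The groups did not overlap, which was also so, with dissociated caps lower, for 7.06% of 36169 transcripts with a read. The exact two-sided permutation p, which ignores the pairs, was 0.1, the smallest that 3 against 3 allows. Also without the pairs, limma without the filter gave a change of -0.34 ± 0.144 (SE, unadjusted p = 0.0548, adjusted p = 0.709). No unadjusted p of the other members was lower. Among the further MIXL1 transcripts, Xelaev18026295m (79 reads in all to 2) and mixer.L (24 to 7) were also lower in each of 3 pairs. There Xelaev18028629m was lower in 0 of 3 pairs and mixer.S in 1, and Xelaev18028630m had no read. Without the filter limma called 0 of 4 members and 0 of all 36169 transcripts, so that count says nothing particular of the members. With the filter, where no member was tested, 0.316% of transcripts were called in either direction. At 0 to 9 reads a library in the other 3 members, a fall or a small rise after dissociation could not be seen. None of them reached the 186 reads that were the fewest in libraries where the family was expressed. Xelaev18028631m held 3 reads in all in controls 1 to 3 and 12 in dissociated caps (exact permutation p = 0.4). Marker lists differed beside Xelaev18026293m. Epidermal markers summed to 975 to 2733 RPKM in controls 1 to 3 and to 81.7 to 578 in dissociated caps, and neural plate markers to 93.7 to 518 and 883 to 1774. Vegetal markers stood at 21.2 to 32.5 RPKM in controls 1 to 3 and 7.30 to 17.5 in dissociated caps, with 3 or 4 of the 16 transcripts at 0 reads in each of these libraries (gata5.L, gdf1.S and nanos1.L in all 6), and their part in the result was not tested.

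Adding Wnt8 to Xnr2 moved the members in different directions, each by less than 2-fold. These are single libraries of 1 control set. No test was run between them, and ratios carry exact binomial intervals for counting error only. The mix1.S level was 1.58 times that after Xnr2 alone (95% interval 1.46 to 1.72) and that of mix1.L 1.41 times (1.304 to 1.516). The ratio was 0.908 for Xelaev18028631m (0.796 to 1.04), an interval that holds 1, and 0.710 for Xelaev18026293m (0.648 to 0.778). These ratios are unscaled, and the median difference of log2(RPKM + 1) over all 14870 transcripts was 0.072. Scaling libraries to one median moved that of Xelaev18028631m from -0.125 to -0.190, and no interval was computed after scaling. Of 14870 transcripts, 1.96% were at least 2-fold higher and 1.06% at least 2-fold lower on log2(RPKM + 1) where 1 of the libraries reached 5 RPKM, and 0 of 4 members were either.

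BMP4 and Xnr2, both TGF-beta ligands but acting through different Smads, gave different member profiles. The BMP4 library held 3.54 times as much mix1.S as the Xnr2 library (3.29 to 3.80) and 2.29 times as much mix1.L (2.14 to 2.45). For Xelaev18028631m the ratio was 1.19 (1.05 to 1.35) and for Xelaev18026293m it was 0.806 (0.738 to 0.880). These ratios are unscaled, and the median log2 change from controls over all transcripts was 0.16 after BMP4 and -0.14 after Xnr2. With libraries scaled to one median, Xelaev18028631m rose by 3.52 after BMP4 and 3.56 after Xnr2, so its order is not settled. The other members kept their order with that scaling. The libraries belong to different control sets and have 1 replicate each, so a difference between the sets cannot be told apart from one between the ligands. In this comparison the mix1 copies were higher after BMP4 and Xelaev18026293m was higher after Xnr2.

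In the embryo parts all 4 transcripts were higher on the ventral side. The organizer lies dorsally, and the ventral part holds tissue exposed to more BMP signal. The ratio of ventral to dorsal was 4.13 for mix1.L (3.71 to 4.61), 2.71 for Xelaev18026293m (2.42 to 3.03), 1.86 for mix1.S (1.71 to 2.03) and 1.67 for Xelaev18028631m (1.38 to 2.02). On log2(RPKM + 1), 2 of 4 members were at least 2-fold higher in the ventral part, against 1.66% of 14996 transcripts, and the median difference was 1.11 for the members and 0.01 for all transcripts. There was 1 library a side, so nothing says how far other embryos would vary.

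**Figure D3:**
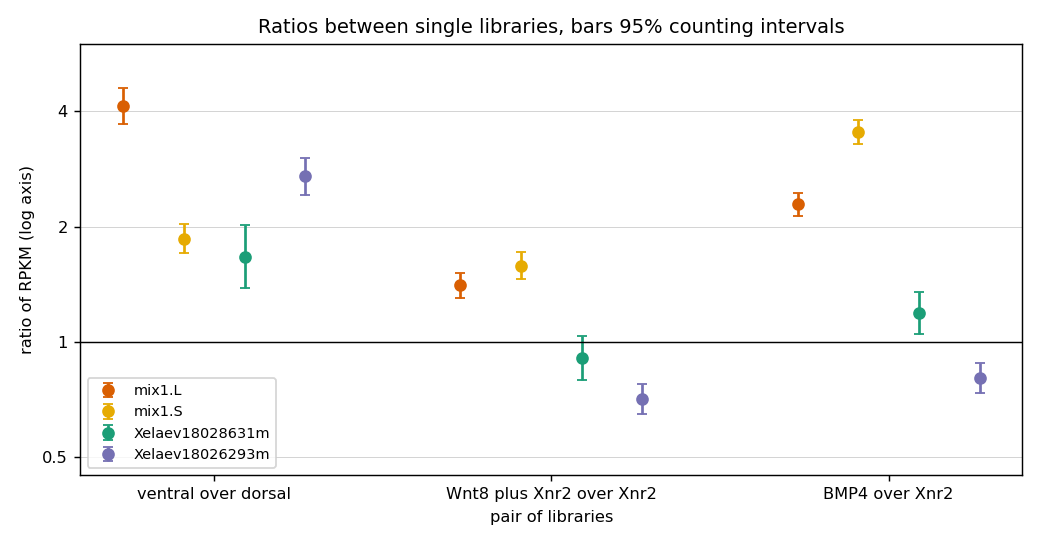
Ratio of RPKM between pairs of single libraries for the 4 Mix transcripts on a log axis, with exact 95% binomial intervals of the reads. All 4 points lie above 1 for ventral over dorsal, led by mix1.L at 4.13, while the other pairs split the mix1 copies from Xelaev18026293m.

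The balance between the homeologous mix1 copies differed between libraries. The ratio of mix1.L to mix1.S was 0.588 in the dorsal part (0.522 to 0.661) and 1.303 in the ventral part (1.21 to 1.40), so that mix1.L made up 37.0% of the summed RPKM of the pair dorsally and 56.6% ventrally. In the caps the ratio was 0.880 after BMP4 (0.838 to 0.923), 1.21 after Wnt8 plus Xnr2 (1.13 to 1.29) and 1.36 after Xnr2 (1.25 to 1.48). The intervals of the dorsal part and of BMP4 lie below 1 and those of the other 3 libraries above it. The sources used here do not say how reads matching both copies were assigned, so values of single copies are uncertain.

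The numbered models kept their order in all 5 libraries. The ratio of Xelaev18026293m to Xelaev18028631m was lowest after BMP4, at 1.61 (1.45 to 1.79), and 1.86 after Wnt8 plus Xnr2 (1.658 to 2.088). It was 2.37 in the dorsal part (1.99 to 2.83) and 2.38 after Xnr2 (2.13 to 2.66), which did not differ beyond counting error. The ventral part had the highest ratio, 3.84 (3.37 to 4.39).

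**Figure D4:**
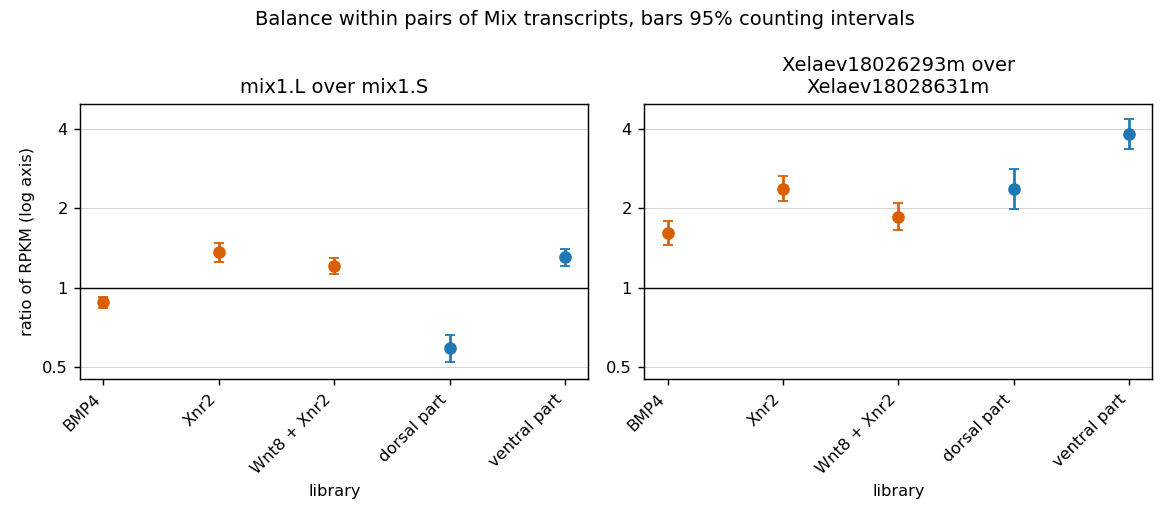
Ratio of RPKM within 2 pairs of Mix transcripts in 5 libraries on a log axis, with exact 95% binomial intervals of the reads. For the mix1 copies the dorsal part (0.588) and BMP4 (0.880) lie below 1, and for the numbered models all ratios lie between 1.61 and 3.84.

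Of the 5 further MIXL1 transcripts, the mixer copies had another pattern across libraries. In the ventral part mixer.L read 97.6 RPKM and mixer.S 60.2, and in the dorsal part 55.1 and 29.6, above every member in the same part. After BMP4 they read only 5.63 and 2.31 RPKM, though both were called higher (log2 change 2.65 ± 0.208, limma adjusted p = 0.000481, and 1.70 ± 0.195, adjusted p = 0.00459). With the control set as a block mixer.S lost its call (adjusted p = 0.0885), and with a pseudocount of 0.1 RPKM both did (adjusted p = 0.0944 and 0.202). The Xnr2 table does not list them, which puts mixer.L below 2 RPKM and mixer.S below 1.97.

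With Wnt8 added to Xnr2, mixer.L read 27.3 RPKM and mixer.S 5.25 (log2 change from controls 4.74 ± 0.179, limma adjusted p = 1.39e-06, and 2.61 ± 0.149, adjusted p = 1.04e-05). From the bound set by the filter, mixer.L was at least 13.6-fold higher in the double injection than after Xnr2, and mixer.S at least 2.66-fold. Between the same libraries mix1.L differed by 1.41 times and mix1.S by 1.58 times. These again are single libraries. Ventral over dorsal, mixer.L gave 1.77 (1.70 to 1.84) and mixer.S 2.03 (1.90 to 2.16), both within the members' range of 1.67 to 4.13.

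The model Xelaev18026295m resembled the members, with 25.8 RPKM after BMP4, 21.9 in the ventral part, 10.4 in the dorsal part, 8.73 after Xnr2 and 7.92 after Wnt8 plus Xnr2. Its control 2 stood at 1.296 RPKM, against 0.0490 to 0.403 in the other controls. Xelaev18028630m was listed at 2.39 RPKM after Xnr2, 4.05 after Wnt8 plus Xnr2 and about as high in both parts (1.40 and 1.38). Xelaev18028629m differed most: it read 0.534 to 0.569 RPKM in controls 1 to 3 already, and 3.11 after BMP4 (limma adjusted p = 0.126).

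**Figure D5:**
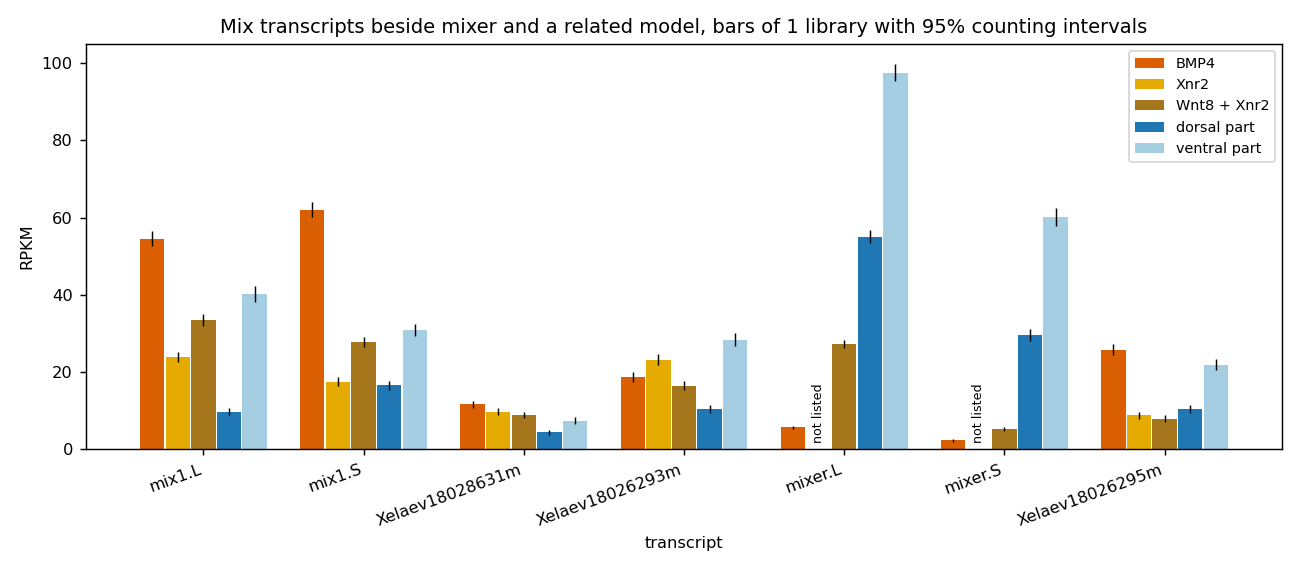
RPKM of the 4 Mix transcripts, the mixer copies and Xelaev18026295m in 5 libraries, as bars of 1 library each with the 95% Poisson interval of the reads. The mix1 copies are highest after BMP4 (54.5 and 62.0 RPKM), while the mixer copies are highest in the ventral part (97.6 and 60.2) and not listed after Xnr2.

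Over the 15 libraries the members ran closely together, with Pearson correlations of log2(RPKM + 1) of 0.979 to 0.994 between pairs. Since values are either near 0 or high, these correlations mostly restate that division, and they are given as a description. Among 11003 transcripts with values in all 15 libraries and at least 5 RPKM in 1 of them, those most like mix1.L were mix1.S (r = 0.994) and Xelaev18028631m (0.993). Also among the nearest were Xelaev18026293m (0.983), Xelaev18010507m (human symbol TBX6, 0.978) and Xelaev18019873m (no human symbol, 0.975). All points share the same libraries and depths. The levels differed widely: Xelaev18010507m, a T-box model, reached 462 RPKM and Xelaev18019873m at most 14.7.

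Other genes of the mesoderm were high in the same libraries. Of a list of mesoderm transcription factors and ligands, 20 of 24 tested transcripts were called higher after BMP4 (median log2 change 3.86), 32 of 35 after Xnr2 (5.54) and 30 of 33 after Wnt8 plus Xnr2 (5.46), and 0 were called lower. Over all transcripts tested 0.417%, 3.69% and 3.5% were called higher. After BMP4 the count was 14 with the control set as a block, 6 with a pseudocount of 0.1 RPKM and 0 with voom and the block. Transcripts that are near 0 in controls enter these counts only where the treatment is high. Brachyury (t.S), the T-box factor of early mesoderm, stood at 104 RPKM after BMP4, 538 after Xnr2 and 534 after Wnt8 plus Xnr2. After Wnt8 alone 2 of 13 were called higher, the injected gene's own transcript wnt8a.L and evx1.L, a homeobox gene of posterior mesoderm, which read 7.44 RPKM against 0.914 in control 3. Neither call held with the control set as a block, with a pseudocount of 0.1 RPKM, with voom, or without control 2 or control 4, where 0 of 13 were called, and 1 was called without any single dissociated library.

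The endoderm list holds both mixer copies, which with both sox17a copies made up all its calls after BMP4. Its transcripts near 0 in controls were tested only where the treated library was high. Of all transcripts tested, 0.417% were called higher after BMP4, 3.69% after Xnr2 and 3.5% after Wnt8 plus Xnr2. Of the list's tested transcripts, 4 of 8 were called higher after BMP4, 1 of 10 after Xnr2 and 6 of 14 after Wnt8 plus Xnr2. With the control set as a block these counts were 1, 0 and 5, with a pseudocount of 0.1 RPKM 0, 0 and 4. Without control 3, control 4 or dissociated 2 the count after Xnr2 was 0, and without control 1 it was 2. The endoderm determinant sox17a.S read 18.7 RPKM after BMP4 and 44.8 after Wnt8 plus Xnr2, against 1.45 and 0.929 in the respective controls. Its homeologue sox17a.L stood at 8.70 RPKM after Xnr2 alone and at 18.2 after the double injection. The Mix transcripts were high after Xnr2 in a library where at most 2 of 10 endoderm transcripts tested were called higher in any of these fits. Only 10 of the list's 35 transcripts were tested there, so these counts do not show that endoderm genes were not induced. Those counts do not cover sox17b.1.L, which was not matched to the list and had no read in controls 1 to 3. It read 8.36 RPKM after Xnr2 and 13.9 after the double injection, against 0.976 in control 4. As a name with no read in controls 1 to 3 or dissociated 1 to 3, it was left out of the main fits. It entered only the fits that kept such names, whose result for it is not reported here. Many such names are apparently other names of the same genes, so its 0 in those libraries may not be a true level.

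Among ligands of the Nodal pathway, nodal2.L, which encodes Xnr2, stood at 3.29 RPKM in the Xnr2 library and at 12.5 in the double injection, and injected and endogenous transcripts cannot be told apart. After BMP4, 1 of 15 tested transcripts of the list of ligands and signal carriers was called, nodal.L at 2.41 RPKM. That call was lost with the block, with a pseudocount of 0.1 RPKM, and without control 3, control 4 or any 1 of the dissociated libraries. Of the Nodal antagonists, 1 of 5 was called higher after BMP4, 3 of 7 after Xnr2 and 4 of 8 after Wnt8 plus Xnr2. Beside these counts stand the shares over all transcripts, 0.417%, 3.69% and 3.5%. The counts after BMP4 and Xnr2 were 0 and 2 with the block and 0 and 1 with a pseudocount of 0.1 RPKM. Leaving out 1 library moved the count after BMP4 to 0 (control 2, 3 or 4, dissociated 1 or 3) or 2 (dissociated 2). Among them cer1.S, the frog Cerberus gene, stood at 10.4 RPKM after Xnr2 alone and at 101.5 after the double injection, and the feedback inhibitor lefty.S read 2.64 RPKM after BMP4, 9.38 after Xnr2 and 24.7 after both.

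Organizer genes followed another course than the Mix transcripts between the embryo parts. After BMP4, 1 of 8 tested organizer transcripts was called higher, lhx1.L at 1.98 RPKM. The counts were 8 of 13 after Xnr2 and 11 of 17 after Wnt8 plus Xnr2. Over all transcripts tested the shares called higher were 0.417%, 3.69% and 3.5%. Organizer transcripts near 0 in controls were tested only where the treatment was high, so these counts come from differing sets. The count after BMP4 was 0 with the block, with a pseudocount of 0.1 RPKM, and without control 2, control 3, control 4, dissociated 1 or dissociated 3, and it was 2 without dissociated 2. Between the parts, 17 of 21 listed organizer transcripts were at least 2-fold lower in the ventral part, where 1.25% of all transcripts were. Of the mesoderm list, 16 of 36 were at least 2-fold higher ventrally and 5 at least 2-fold lower, against 1.66% and 1.25% of all transcripts. With Wnt8 added to Xnr2, 7 of 12 organizer transcripts were at least 2-fold higher, against 1.96% of all transcripts. In the same comparison 10 of 34 mesoderm transcripts were at least 2-fold lower, against 1.06%.

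The authors' deposited table gives its own fold changes for the family. In 6 of 12 of them, after BMP4, Xnr2 or Wnt8 plus Xnr2, the control was at 0 and the fold in the authors' deposited table equals the treated RPKM. For mix1.S after BMP4 it is 62.0, and for mix1.L after Xnr2 it is 23.8, where the floor of 3 control reads gives at least 1081.5-fold and 461.5-fold. Folds in that table therefore rank mix1.S after Xnr2 (585.5, from 2 control reads) far above mix1.S after BMP4, though its RPKM was the lower of the pair.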

How the data were processed

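RNA was measured in 16 libraries. The authors made polyA-selected TruSeq V2 libraries, read on a HiSeq 2000, per the labels' protocols, and deposited RPKM values, per the file headers on genome JGI9.1, with fold changes (ratios) of RPKM columns. The submitters' processing notes name TopHat2 2.09 and DESeq, whose roles, like the annotation, counting rule and strand use, are not given in the sources used here. Paired tables leave out transcripts averaging under 1 RPKM, and 0 columns of values were left unused.

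Because RPKM scales whole reads, reads were recovered: 31582 of 31583 transcripts with at least 3 values above 0 came out whole within 0.01 reads. The length of each transcript was fitted as the smallest whole number that made its values whole, so this count is no independent check. The recovery gave depths, 95% exact intervals, the floor of 3 reads and the voom alternative.

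The tests were limma 3.58.1 in R 4.3.3 with a mean-variance trend on log2(RPKM + 1), Benjamini-Hochberg over all transcripts tested, adjusted p under 0.05, minimum mean 1 RPKM. Dissociation compared 3 libraries with 3. An injected library was set against controls 1 to 4, with dissociated libraries as their own group to give the spread. Names that had no read in controls 1 to 3 or dissociated 1 to 3 (7472, many apparently other names of the same genes) were left out of the FGF8, Xnr2 and Wnt8 plus Xnr2 fits, which was decided after the values were seen. The scripts were tested on simulated data. Single libraries were compared by ratio, without a test.

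Same-numbered control and dissociated libraries, matched by the labels, deviated together (r = 0.584, 0.391 and 0.628), so the numbers pair them, and the control set was tried as a block. Other alternatives were pseudocounts of 0.1 and 5 RPKM, no filter, median scaling, L and S copies summed, and leaving out each replicate.

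Members, lists and markers were chosen with earlier results of these data known. All 4 members are named, with the 6 transcripts most correlated with mix1.L (1 is not reported here) and up to 4 called transcripts per list with the largest change. The other MIXL1 transcripts, shown for comparison, were added to that rule. Genome coordinates were used only for the order of genes beside the mix1 copies, and promoters and protein sequences were not used here. Python 3.11.15, pandas 2.3.3, scipy 1.17.1 and matplotlib 3.10.9 made the summaries and plots.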

Additional observations from a re-analysis of the deposited data

Results flagged for a closer look

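Among the 4 controls, Xelaev18028631m read 0.0422 RPKM in control 3 and 0 in the other 3, a gap that stands for the whole range of the group. The value rests on 3 reads, in the most deeply sequenced library. Among normally spread values chance flags about 1 in 20 groups, but where 3 of 4 libraries have no read, any read in the other gives such a gap. In comparisons where it was near 0 the transcript was untested or not called.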

How the results depend on the processing

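For dissociation, Chordin, Wnt8, Cerberus and FGF8 no member was tested except without the filter (which could not be tried for FGF8), so their counts of 0 say nothing of stability. After Xnr2 and after Wnt8 plus Xnr2, 4 members were called with the replicate block (the control set as a term) as without it, and 4 with each replicate left out, with names without reads kept, and with either pseudocount. After BMP4, 4 were called with the replicate block and with each replicate left out, and 3 with a pseudocount of 0.1 RPKM, where Xelaev18026293m missed the threshold (adjusted p = 0.0944). When L and S copies were summed, all 3 remaining entries were called in each injection. The combination of voom with the replicate block, added after the data were seen, called 0 after BMP4, and 3 after Xnr2 and after Wnt8 plus Xnr2; the cause was not tested. Without voom the block changed no call of a member, but it ended the call of mixer.S after BMP4 and cut all calls from 24 to 1 after FGF8 and from 12 to 0 after Wnt8. Over 12 member results, 163 of 170 alternatives with a test kept direction and side of the threshold, 7 lost the call and 0 reversed. The members passed the filter only through the treated library, so their direction was all but fixed and this tally is no support by itself. Leaving out a dissociated library alters only the spread, and the change of mix1.L after BMP4 stayed at 5.711. Scaling libraries to one median moved the log2 difference of mix1.L from -1.94 to -1.93 in dorsal against ventral and from 0.47 to 0.40 in Wnt8 plus Xnr2 against Xnr2. Dropping the filter could not be tried for BMP4, FGF8, Xnr2 and Wnt8 plus Xnr2, whose tables are already filtered. Depth limits every control value of the family, most of which rest on a few reads, and folds from 0 to 9 control reads are bounds or wide intervals.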
